A study of Mus musculus with 6 samples.

Results

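The epidermal growth factor (EGF) family is a set of related ligands and the ErbB receptor tyrosine kinases that bind them. The genes described here are 6 ligands (Areg, Ereg, Hbegf, Tgfa, Btc and Nrg1) and 3 receptors (Egfr, Erbb2 and Erbb3), 9 genes in all. They were chosen by name, and each was read from its brightest probe set (by the mean of 6 arrays) among those annotated to exactly 1 gene symbol. Of the 9, 8 were measured by this rule, out of 22180 genes in the series. No probe set was annotated to Areg, the amphiregulin gene, and it was not analysed here.

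The series compared colorectal tumours that grew after mouse cancer cells were injected into white adipose tissue, where the body stores most of its fat, with tumours grown after injection into non-adipose tissue. There were 3 mice at each site, 1 tumour to an array, and the tumours were collected at 1 to 1.5 cm3. No other treatment or allele is given for either group. The cancer cell line, the mouse strain, sex and age, and which non-adipose tissue was used are not stated. A value is a log2 signal, so a difference of 1 is a 2-fold difference, and differences are white adipose minus non-adipose throughout.

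EGF family ligands are made as membrane-anchored precursors and are cut free by surface proteases of the ADAM type. Transforming growth factor alpha, amphiregulin and EGF bind EGFR; betacellulin, heparin-binding EGF-like growth factor and epiregulin bind both EGFR and ERBB4; and neuregulin 1 binds ERBB3 and ERBB4. Bound receptors pair with each other, often with ERBB2, which has no known ligand, and signal through the RAS-MAP kinase and PI3-kinase pathways. In the intestine the family supports epithelial growth and repair, and EGFR is a drug target in colorectal cancer.

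The ligand and receptor promoters are shown for Tgfa, the 1 member whose groups of arrays did not overlap, and for Egfr, the receptor its protein binds. Each stretch holds 250 bases before and 50 after the gene start that the RefSeq table uses, on the plus strand of build GRCm38.p6. Capitals mark matches to the GC box GGGCGG on either strand.
Tgfa, chr6:86194972-86195271: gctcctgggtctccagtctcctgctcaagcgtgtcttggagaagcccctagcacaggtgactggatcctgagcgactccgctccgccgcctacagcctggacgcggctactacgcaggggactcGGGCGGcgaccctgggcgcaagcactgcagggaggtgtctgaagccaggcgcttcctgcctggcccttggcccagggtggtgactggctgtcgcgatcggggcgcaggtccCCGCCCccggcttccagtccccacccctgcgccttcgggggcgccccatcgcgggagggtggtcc
Egfr, chr11:16751953-16752252: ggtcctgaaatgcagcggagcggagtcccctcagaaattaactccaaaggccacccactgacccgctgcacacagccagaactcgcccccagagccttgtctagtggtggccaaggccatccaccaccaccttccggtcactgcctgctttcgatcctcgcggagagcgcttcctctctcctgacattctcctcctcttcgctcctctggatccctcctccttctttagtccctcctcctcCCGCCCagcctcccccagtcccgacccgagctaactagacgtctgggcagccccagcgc

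Both promoters were rich in G and C, at 70.7% for Tgfa and 62.3% for Egfr, against a median of 52.7% over 32851 promoters of the same length. The Tgfa stretch held 2 GC boxes and the Egfr stretch 1, a motif found in 35.7% of all these promoters. Neither held the AP-1 motif TGANTCA (7.81% of promoters), the cAMP response element TGACGTCA (1.79%) or the TATA box TATAAA (13.6%); both strands were searched, and matches did not overlap. The RefSeq table held promoters for 5 of the 9 genes, namely Areg, Tgfa, Btc, Egfr and Erbb2. No binding was measured in this series, so the matches describe the letters alone.

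The arrays were alike in level, with medians from 5.66 to 5.69, and no gene of the series passed the threshold: limma called 0 of 22180 genes (0%) at an adjusted p of 0.05, while 841 (3.79%) had an unadjusted p under 0.05. Of the intestinal epithelial markers, the keratin genes Krt8 and Krt18 ranked at percentiles 96.1 and 94.9 when all genes were ordered by mean signal, and the cadherin gene Cdh1 at 66.9. Krt19, Cdx2, Cdx1, Lgr5, Epcam, Krt20 and Vil1 ranked at 43.0, 38.9, 34.8, 29.6, 29.1, 24.8 and 23.3, and no detection call was at hand. Adipocyte markers gave list means of 5.53 to 6.08 in white adipose and 5.72 to 5.82 in non-adipose tumours (difference -0.021). White adipose replicate 1 stood apart in skin and squamous epithelial markers, with a list mean of 8.26 over 7 genes, against 5.19 and 5.33 in the other white adipose arrays and 5.22 to 6.10 in the non-adipose arrays. For the members Nrg1, Hbegf, Ereg, Btc and Erbb3 and the pathway genes Fos and Pik3r1, the difference is also given without this array.

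Of the 8 members, 3 ligands (Ereg, Hbegf and Nrg1) and 2 receptors (Egfr and Erbb2) averaged lower in white adipose tumours, and 3 genes (Tgfa, Btc and Erbb3) averaged higher, where 50.2% of all genes averaged lower and 49.8% higher. Nrg1 was 1.73-fold and Hbegf 1.51-fold lower, the largest differences among the 8, and Erbb3 and Tgfa were each 1.204-fold higher (3 tumours per site). None of the 8 passed over all genes, each with an adjusted p of 0.936 or more by limma. At an unadjusted p under 0.05 there were 2 of 8 members, Hbegf lower and Tgfa higher, where 2.13% of all genes were lower and 1.66% higher by the same rule. Each of the 2 passed that level in only 1 of the 6 fits that left out 1 array, Hbegf without white adipose replicate 1 and Tgfa without non-adipose replicate 3. The groups did not overlap for 1 of 8, Tgfa, where 7.31% of all genes did not overlap, 3.34% with white adipose higher. The median difference of the 8 members was -0.095, against -0.00043 over all genes.

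**Figure D1:**
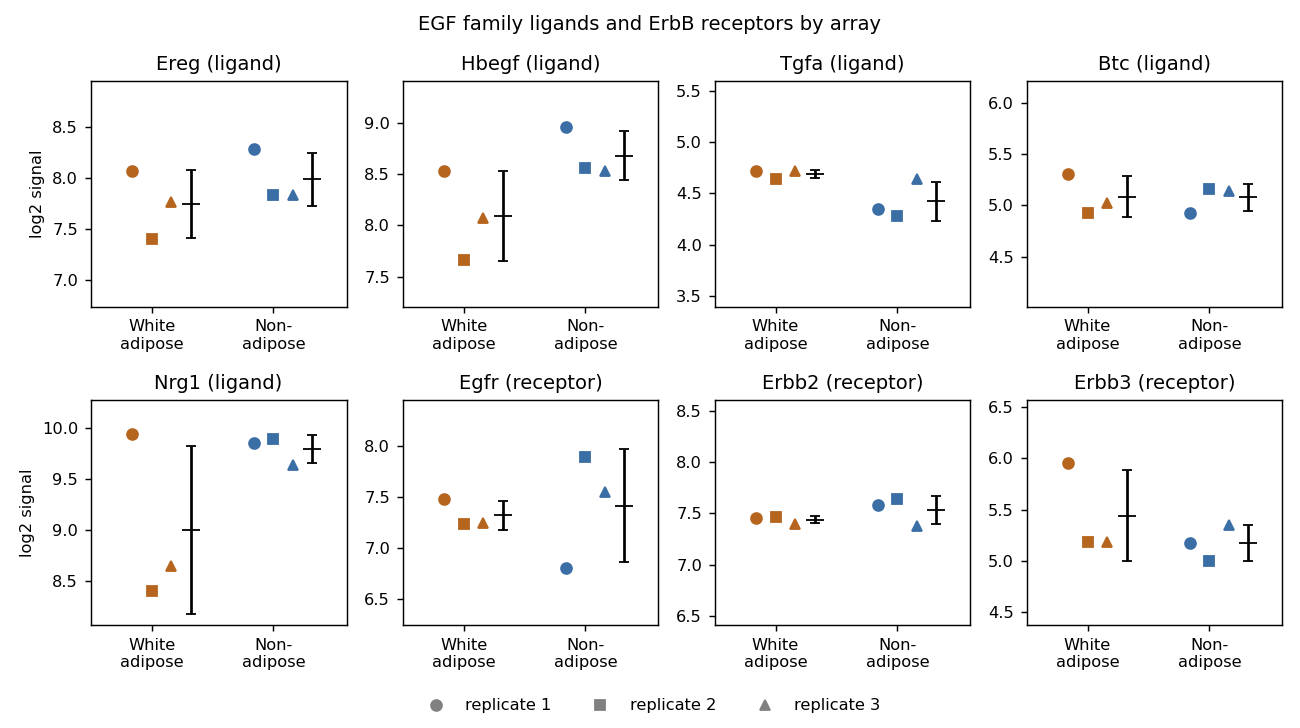
Log2 signal of the 8 measured members on each array, white adipose (brown) left of non-adipose (blue), with marker shapes for replicate numbers and a bar for the mean ± SD (n = 3); every panel spans the same log2 height. Nrg1, Hbegf and Ereg were low on white adipose replicates 2 and 3, and Erbb3 was high on white adipose replicate 1.

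Nrg1, the neuregulin 1 gene, whose protein acts on ERBB3 and ERBB4 and is a growth signal from stroma and nerve, varied the most of the members. It gave 9.94, 8.41 and 8.65 in white adipose replicates 1, 2 and 3, against 9.85, 9.89 and 9.63 in the non-adipose arrays. White adipose replicates 2 and 3 thus lay below all other arrays and replicate 1 above them all. Nrg1 averaged 9.0 ± 0.82 in white adipose and 9.79 ± 0.14 in non-adipose tumours (SD, n = 3 each), a difference of -0.79 (SE 0.39; 95% interval -1.75 to 0.17). Without white adipose replicate 1, the array with the high skin markers, the difference was -1.26 (SE 0.12), still with an adjusted p of 0.259 by limma, whereas leaving out white adipose replicate 2 gave -0.49. Schwann cell and nerve markers, 3 of 5 measured, moved little: their list mean was 6.81, 6.80 and 6.73 in white adipose replicates 1, 2 and 3 and 6.70 to 6.87 in non-adipose arrays. The fibroblast marker list averaged higher in white adipose tumours, by 0.23. It gave 10.76, 10.59 and 10.41 in white adipose replicates 1, 2 and 3, against 10.16, 10.39 and 10.51 in non-adipose replicates 1, 2 and 3. The part of these cells in the Nrg1 values was not tested. In whole tumours, fewer cells of a type and less RNA per cell cannot be told apart, here or for any gene below.

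Hbegf, a heparin-binding ligand that is also induced by injury and inflammation, was the ligand with the second largest difference, after Nrg1. Its signal was 8.54, 7.66 and 8.07 in white adipose replicates 1, 2 and 3, against 8.96, 8.56 and 8.53 in non-adipose replicates 1, 2 and 3. White adipose replicate 1 lay between the non-adipose arrays, so the groups overlapped, while white adipose replicates 2 and 3 were the lowest of the 6. The means were 8.09 ± 0.44 in white adipose and 8.68 ± 0.24 in non-adipose tumours (SD, n = 3 each), a difference of -0.59 (SE 0.24; 95% interval -1.18 to -0.012). Its adjusted p was 0.936 (limma), and with 1 array left out the difference ran from -0.82 without white adipose replicate 1 to -0.38 without white adipose replicate 2. Neutrophil markers, 6 of 6 measured, gave list means of 4.85, 5.15 and 5.18 in white adipose replicates 1, 2 and 3, against 5.78, 4.80 and 5.65 in non-adipose replicates 1, 2 and 3. The array highest in Hbegf was also the highest in these markers, but the next in Hbegf, non-adipose replicate 2 and white adipose replicate 1, were the lowest in them. The part of these markers in the result was not tested.

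Ereg, the epiregulin gene, whose level in human colorectal tumours has been linked to the response to EGFR antibodies, followed the array order of Hbegf in part. It gave 8.07, 7.40 and 7.77 in white adipose replicates 1, 2 and 3, against 8.29, 7.84 and 7.84 in non-adipose arrays. The groups overlapped because white adipose replicate 1 was the second highest of the 6, and the lowest value was again that of white adipose replicate 2. The difference was -0.24 (SE 0.20; 95% interval -0.73 to 0.25), and it ran from -0.40 without white adipose replicate 1 to -0.070 without white adipose replicate 2. Without non-adipose replicate 1, the highest array, it was -0.090. Ereg was the 1 member with 2 probe sets. The dimmer probe set gave 6.27, 6.07 and 6.18 in white adipose replicates 1, 2 and 3 and 6.65, 6.28 and 6.22 in non-adipose arrays, a difference of -0.21 (SE 0.13), so both probe sets had the same direction and the same highest and lowest arrays.

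Tgfa, which encodes transforming growth factor alpha, was read by a dim probe set, ranking at percentile 21.6 when all genes were ordered by mean signal. It gave 4.71, 4.64 and 4.71 in white adipose replicates 1, 2 and 3, against 4.35, 4.28 and 4.64 in non-adipose arrays. All white adipose values lay above all non-adipose values, but the gap between white adipose replicate 2 and non-adipose replicate 3 was only 0.0007. The means were 4.69 ± 0.042 in white adipose and 4.42 ± 0.19 in non-adipose tumours (SD, n = 3 each), a difference of 0.27 (SE 0.11; 95% interval 0.011 to 0.52) with an adjusted p of 0.936 (limma). With 1 array left out it ran from 0.19 without non-adipose replicate 2 to 0.38 without non-adipose replicate 3. Without a detection call, it is not known here how much of so dim a signal is background.

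Btc, the betacellulin gene, did not separate the sites. It ranked at percentile 32.1 by mean signal, and without a detection call Btc may be near background. Its values were 5.31, 4.92 and 5.02 in white adipose replicates 1, 2 and 3, against 4.93, 5.16 and 5.14 in non-adipose arrays. White adipose held both the highest and the lowest array. The difference was 0.0044 (SE 0.12; 95% interval -0.29 to 0.30), and its sign changed with the array left out, from -0.11 without white adipose replicate 1 to 0.085 without white adipose replicate 2.

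Epgn, Ereg, Areg and Btc follow one another as protein-coding genes on mouse chromosome 5 in GRCm38.p6. Of the 3 measured neighbours, Ereg and Epgn had lower means in white adipose tumours and Btc a slightly higher one, with differences of -0.24, -0.069 and 0.0044. The neighbours differed in where their arrays lay: Ereg was highest on non-adipose replicate 1, Btc on white adipose replicate 1 and Epgn on non-adipose replicate 3.

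Egfr, the receptor that most of these ligands share, varied within the non-adipose group more than between the groups. It gave 7.48, 7.23 and 7.25 in white adipose replicates 1, 2 and 3, against 6.81, 7.89 and 7.54 in non-adipose replicates 1, 2 and 3. The lowest and the highest array were both non-adipose, and the white adipose values lay between them. The means were 7.32 ± 0.14 in white adipose and 7.41 ± 0.55 in non-adipose tumours (SD, n = 3 each), with a difference of -0.094 (SE 0.27; 95% interval -0.76 to 0.57). It was -0.40 without non-adipose replicate 1 and 0.14 without non-adipose replicate 2, so its direction changed when that array was left out. Fibroblast markers, 7 of 7 measured, were lowest on non-adipose replicate 1, where Egfr was also lowest. So were endothelial markers, 5 of 5 measured, and the Schwann cell and nerve markers, each at 6.70. Non-adipose replicate 2 gave 6.91 and 6.81 in these lists, whose highest values, 6.98 and 6.87, were on other arrays. Neutrophil markers were instead highest on non-adipose replicate 1, at 5.78. The fibroblast list mean was 10.76, 10.59 and 10.41 in white adipose replicates 1, 2 and 3, against 10.16, 10.39 and 10.51 in non-adipose replicates 1, 2 and 3. Non-adipose replicate 2, the highest in Egfr, was second lowest in it. The part of these cells in the Egfr values was not tested.

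Erbb2, the preferred partner of the other ErbB receptors, was the steadiest member, with a range of 0.26 over the 6 arrays. It gave 7.46, 7.46 and 7.40 in white adipose replicates 1, 2 and 3, against 7.58, 7.64 and 7.38 in non-adipose arrays. Non-adipose replicates 1 and 2 were the highest and non-adipose replicate 3 the lowest, so the groups overlapped. The difference of -0.096 (SE 0.084; 95% interval -0.30 to 0.11) became -0.17 without non-adipose replicate 3 and -0.042 without non-adipose replicate 2.

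Erbb3, a receptor with a weak kinase that binds neuregulins and recruits PI3-kinase, had a higher mean in white adipose tumours through 1 array. By mean signal Erbb3 ranked at percentile 37.1, without a detection call, so part of its signal may be background. It gave 5.95, 5.18 and 5.18 in white adipose replicates 1, 2 and 3, against 5.17, 4.997 and 5.35 in non-adipose replicates 1, 2 and 3. The deposited values of white adipose replicates 2 and 3 were identical, at 5.18451, and the source of this tie was not tested. The difference was 0.27 (SE 0.23; 95% interval -0.29 to 0.82), and it was 0.012 (SE 0.11) without white adipose replicate 1. That array was also the highest in skin and squamous epithelial markers, at 8.26, and in intestinal epithelial markers, at 6.29 against 6.08 to 6.24 on the others. Non-adipose replicate 3 was second in Erbb3 and in both marker lists. The part of these cells in the Erbb3 values was not tested.

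**Figure D2:**
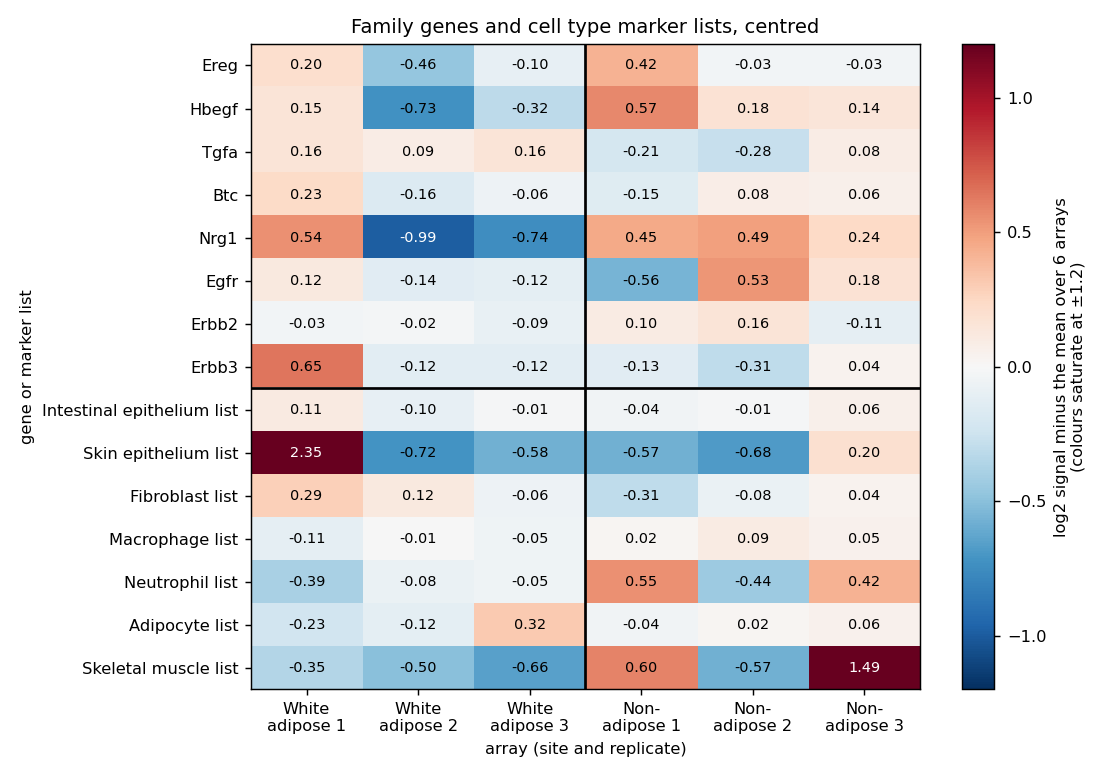
Log2 signal minus the mean over the 6 arrays, for the 8 members (above the line) and for the list means of 7 cell type marker lists (below it), white adipose arrays left of non-adipose arrays. Nrg1 was 0.99 and 0.74 below its mean on white adipose replicates 2 and 3, and Erbb3 was 0.65 above its mean on white adipose replicate 1, where the skin list was 2.35 above.

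The members did not share a single array order. Ereg and Hbegf had the same highest array, non-adipose replicate 1, and the same lowest, white adipose replicate 2, which was also the lowest for Nrg1 and Btc. Nrg1, Tgfa, Btc and Erbb3 were highest on white adipose replicate 1, whereas Egfr and Erbb2 were highest on non-adipose replicate 2. The spread over the 6 arrays (SD) was 0.68 for Nrg1 and 0.45 for Hbegf, at percentiles 98.9 and 97.1 of all genes, and 0.10 for Erbb2, at percentile 37.1.

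The other genes of the family stayed near 0. All 6 (Egf, Epgn, Erbb4, Nrg2, Nrg3 and Nrg4) were measured. Their differences lay between -0.11 for Erbb4 and 0.13 for Egf, 4 with a higher and 2 with a lower mean in white adipose tumours, and 0 of 6 at an unadjusted p under 0.05. Egf, which encodes the founding ligand, gave 4.73, 4.73 and 4.84 in white adipose replicates 1, 2 and 3, against 4.997, 4.67 and 4.24 in non-adipose arrays. Erbb4, the other neuregulin receptor, gave 4.18, 3.84 and 4.18 in white adipose replicates 1, 2 and 3, against 4.18, 4.18 and 4.15 in non-adipose arrays. Its deposited value was identical, at 4.17767, on white adipose replicates 1 and 3 and non-adipose replicates 1 and 2. Egf, Epgn, Nrg3 and Nrg4 also had values that were identical between some arrays. The source of these ties was not tested. By mean signal Nrg2 ranked at percentile 51.5 and the other 5 at 15.2 to 34.1, without a detection call, so their values may be near background.

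**Figure D3:**
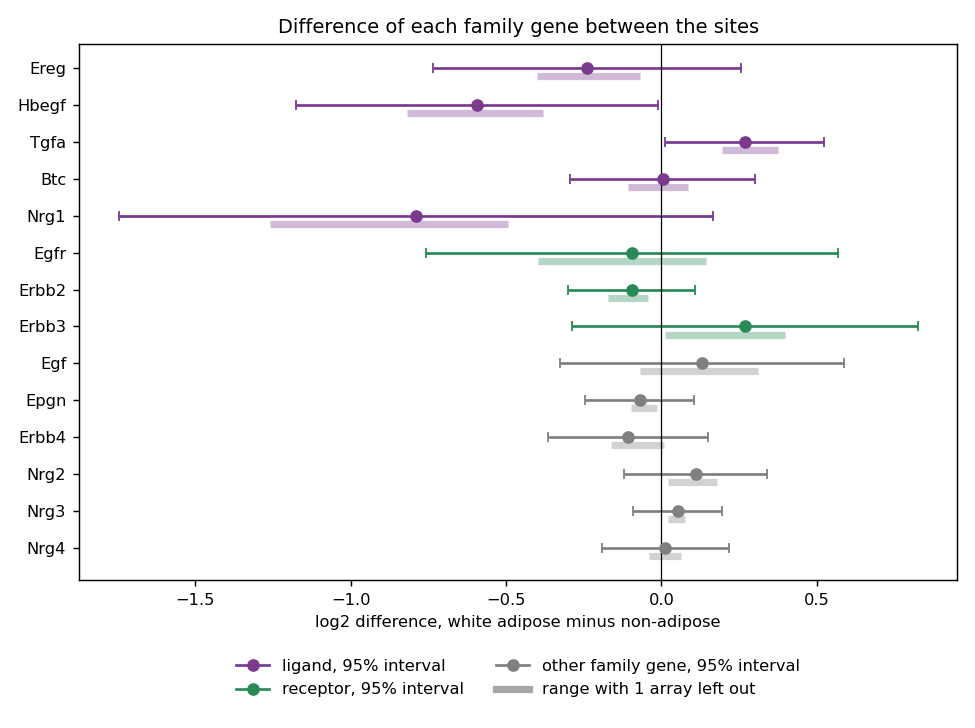
Log2 difference, white adipose minus non-adipose, of the 8 members and the 6 other family genes, with the 95% interval of the fit (thin line) and the range of the difference with each array left out in turn (thick line). The intervals of Hbegf (-1.18 to -0.012) and Tgfa (0.011 to 0.52) leave out 0 before adjustment, and those of the other 12 genes include it.

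Genes that act around the receptors were read from 5 lists of textbook roles, 80 different genes of which 72 were measured. None passed over all genes (adjusted p of 0.936 or more, limma). At an unadjusted p under 0.05, 5 of 72 were lower and 1 higher in white adipose tumours, where 2.13% and 1.66% of all genes were. The groups did not overlap for 8 of 72 with white adipose lower and 1 with it higher, where 3.97% and 3.34% of all genes did not. The median difference of the 72 was -0.017, against -0.00043 over all genes, of which 50.2% averaged lower. These shares over all genes also stand beside the counts of each list below.

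Among 15 measured genes that ERK signalling induces, 10 had a lower and 5 a higher mean, with a median of -0.15, where 50.2% of all genes averaged lower. At an unadjusted p under 0.05, 3 were lower, where 2.13% of all genes were. These 3 were the cyclin D1 gene Ccnd1 at -0.24 (SE 0.068), the early response genes Fos at -1.54 (SE 0.47) and Egr1 at -0.40 (SE 0.14). The groups did not overlap for any of the 3, where 3.97% of all genes lay apart with white adipose lower. Of the rest, Ier3, Plaur, Myc, Epha2, Dusp6 and Phlda1 were at -0.65, -0.42, -0.33, -0.32, -0.15 and -0.068. Spry2, Hmga2, Spry4, Etv4, Etv5 and Plat were at -0.022, 0.0044, 0.0066, 0.021, 0.052 and 0.15. With 1 array left out, 1 to 7 of the 15 were under 0.05 in either direction, with 7 when white adipose replicate 1 was left out. Ccnd1 stayed under 0.05 in 6 of 6 such fits, Fos in 3 and Egr1 in 1. Fos was at -2.06 without white adipose replicate 1 and at -1.21 without white adipose replicate 2. Egr1 was at -0.25 without white adipose replicate 3. Ccnd1 gave 10.79, 10.71 and 10.80 in white adipose replicates 1, 2 and 3, against 11.04, 11.06 and 10.91 in non-adipose arrays. Fos gave 7.88, 6.18 and 6.46 in white adipose replicates 1, 2 and 3, against 8.28, 8.01 and 8.84 in non-adipose arrays, lowest on the same pair of arrays as Nrg1 and Hbegf. Skeletal muscle markers, 5 of 5 measured, gave list means of 5.14 to 5.45 in white adipose arrays. Non-adipose replicates 1, 2 and 3 gave 6.40, 5.23 and 7.29, so the groups overlapped and only replicates 1 and 3 were higher than all white adipose arrays. The part of these markers in the Fos values was not tested.

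Feedback and turnover genes of the receptors, 20 of 20 measured, had 11 lower and 9 higher means, a median of -0.018 and 1 gene at an unadjusted p under 0.05. That gene was Ptprj, a receptor phosphatase that dephosphorylates EGFR. It gave 9.20, 9.18 and 9.19 in white adipose replicates 1, 2 and 3, against 9.35, 9.35 and 9.33 in non-adipose arrays. The groups lay apart by 0.14, and the difference of -0.15 (SE 0.052) stayed between -0.16 and -0.15 with any array left out, but its unadjusted p was under 0.05 in only 2 of those 6 limma fits and was 0.070 with the replicate number as a block. Dusp5, a phosphatase of nuclear ERK, differed by -0.34 (SE 0.14) and Ptpn1, another tyrosine phosphatase, by -0.14 (SE 0.059).

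Of the 15 measured adaptor, RAS and MAP kinase genes, 10 had a lower and 5 a higher mean, with a median of -0.026. Map2k2, which encodes the ERK kinase MEK2, was the 1 gene at an unadjusted p under 0.05, at -0.16 (SE 0.063), with Map2k1 at -0.18 (SE 0.13) and the RAS exchange factor gene Sos1 at -0.083 (SE 0.059). Map2k2 gave 7.98, 8.11 and 8.005 in white adipose replicates 1, 2 and 3, against 8.20, 8.16 and 8.22 in non-adipose arrays, with no overlap. It was under 0.05 in only 1 of the 6 fits with 1 array left out, that without white adipose replicate 2. Shedding and trafficking genes, 13 of 13 measured, had a median difference of 0.0032 and 0 genes at an unadjusted p under 0.05; the protease gene Bace1 was at 0.16 (SE 0.081), and Frmd8 and Rhbdf1, whose proteins form a complex with ADAM17, at -0.12 (SE 0.080) and -0.15 (SE 0.11).

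Of the 12 measured PI3-kinase and AKT genes, 9 had a higher and 3 a lower mean, with a median of 0.0068. The regulatory subunit gene Pik3r3 was at 0.49 (SE 0.19) and was the 1 gene of the 5 lists that was higher at an unadjusted p under 0.05. It gave 6.59, 7.16 and 6.67 in white adipose replicates 1, 2 and 3, against 6.07, 6.33 and 6.57 in non-adipose arrays, which lay apart by 0.018. Its difference was 0.31 without white adipose replicate 2, and its unadjusted p was not under 0.05 in 4 of the 6 fits with 1 array left out. Pik3r1, a related subunit gene, gave 8.44, 9.81 and 9.73 in white adipose replicates 1, 2 and 3, against 8.54, 8.52 and 9.40 in non-adipose arrays. Its difference of 0.50 (SE 0.43) was 0.94 without white adipose replicate 1, and leaving out replicate 2 gave 0.26. Mtor differed by -0.061 (SE 0.057).

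**Figure D4:**
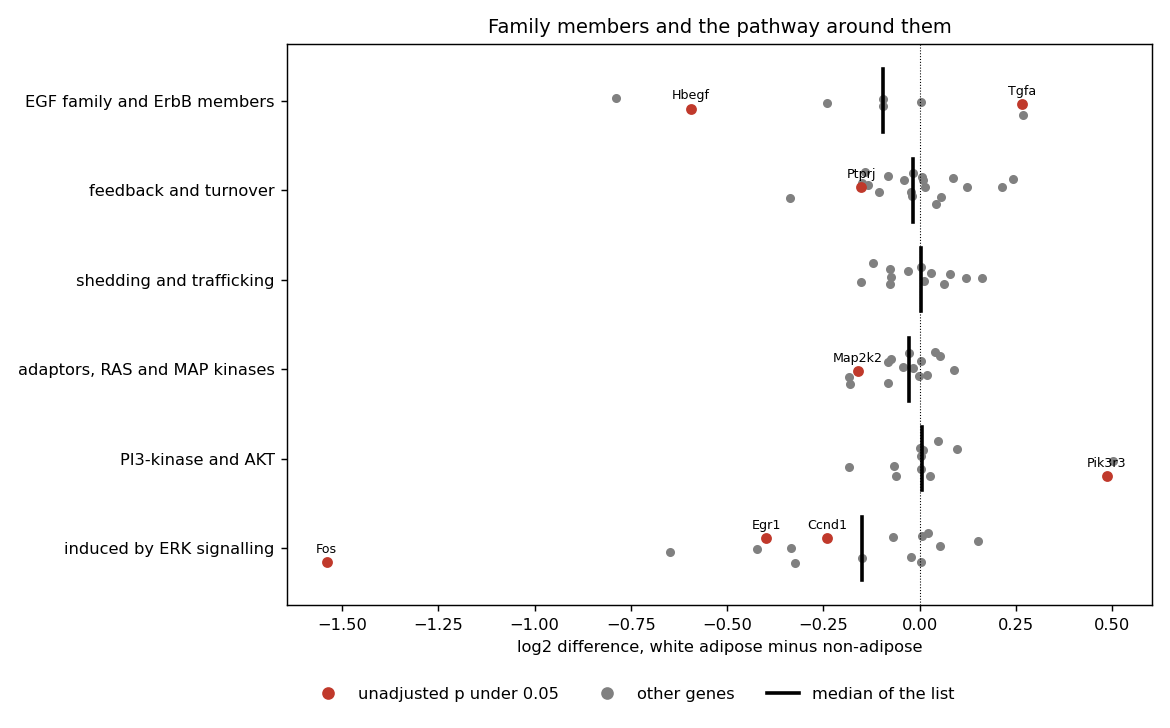
Log2 difference, white adipose minus non-adipose, of the 8 members (top row) and of the genes of 5 related lists, with red points for an unadjusted p under 0.05 and a black line for each median; the height of a point within its row has no meaning. The medians lie between -0.15 (genes induced by ERK signalling) and 0.0068 (PI3-kinase and AKT).

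For the ligand and the receptor that varied most, the genes with the most similar profile were sought among 10324 named genes brighter than the median, by the root mean square gap between log2 profiles centred on their means over 6 arrays. For Nrg1 these were Gja1, the gap junction gene of connexin 43, with a gap of 0.12, Ms4a14 with 0.14, and the cytokine gene Il7 with 0.18. Gja1 gave 10.91, 9.35 and 9.73 in white adipose replicates 1, 2 and 3, against 10.54, 10.83 and 10.51 in non-adipose arrays, with the same low pair of arrays as Nrg1. For Egfr they were Lyve1, a hyaluronan receptor gene of lymphatic vessels and some macrophages, with 0.082, the carbonyl reductase gene Cbr2 with 0.10, and the scavenger receptor gene Scara5 with 0.17. Lyve1 gave 6.47, 6.32 and 6.36 in white adipose replicates 1, 2 and 3, against 5.90, 6.77 and 6.57 in non-adipose arrays. These genes were chosen for their likeness, so their values are a description.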

How the data were processed

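Total RNA of each tumour was labelled as biotin cDNA with the Affymetrix WT PLUS kit, per the labels' protocols. The authors' deposited log2 values, made with Affymetrix Expression Console per the submitters' processing notes, cover 41345 probe sets on 6 arrays with 0 missing values. Its version, background correction and normalization are not stated in those sources. No detection call, slide or scan date was used, so batches were not tested. The platform annotation paired 23521 probe sets with exactly 1 gene symbol, which left 22180 genes at the brightest probe set each.

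The lmFit and eBayes functions of limma 3.58.1 (R 4.3.3) compared the sites gene by gene, with Benjamini-Hochberg adjustment over all genes and a threshold of 0.05. The median 95% interval half-width was 0.24, which the number of arrays limits. In data simulated for this comparison (22180 genes, 5 runs), the fit recovered 97.0% of the changes of 4-fold, 91.1% of those of 2-fold and 38.6% of those of 1.41-fold. Of its calls, 5.72% were false. The simulated noise was normal and independent, with no array that stood apart, and the changed genes were drawn at random from all genes. These shares therefore need not hold for the real arrays or for genes as variable as Nrg1 and Hbegf. An exact permutation of 3 against 3 arrays cannot go below a p of 0.1 and was not used.

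The genes named were the members, the other family genes, the measured genes of the ERK-induced list and cell type markers. Up to 3 genes of each other list were named by smallest unadjusted p. The 3 genes nearest in profile to the most variable ligand and receptor were named too. Members, lists and rules were chosen with earlier results of these data known. The labels do not say that a shared replicate number marks a pair, so such samples were not taken as pairs. Deviations from the group means correlated at 0.14, 0.064 and 0.064 for arrays of the same number. Across the groups, arrays of different numbers gave -0.18 to 0.086. Whether the numbers mark pairs cannot be settled from these values. Alternatives were other scalings, a filter on dim genes, the mean of probe sets, another variance model, array weights, a replicate block and each array left out.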

Additional observations from a re-analysis of the deposited data

How the results depend on the processing

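No gene passed over all genes under any alternative run, and the smallest adjusted p of a member was 0.259. Of 103 member results under alternatives, 97 kept their direction and 6 changed sign. No member came near the adjusted p threshold in the main fit, so this count describes direction alone. Btc became -0.0085 after quantile normalization, -0.0048 with array medians subtracted, -0.050 with array weights, -0.11 without white adipose replicate 1, and -0.070 with non-adipose replicate 1 left out, and Egfr became 0.14 without non-adipose replicate 2. Among other genes, Egf became -0.068 without non-adipose replicate 3, Erbb4 0.0079 without white adipose replicate 2, and Nrg4 -0.041 without white adipose replicate 3 and -0.036 with non-adipose replicate 1 left out. The 2 members at an unadjusted p under 0.05 became 1 after quantile normalization (Hbegf remained), 1 with the filter on dim genes, which leaves out Tgfa by construction, and 0 to 2 with 1 array left out: Hbegf and Nrg1 without white adipose replicate 1, Tgfa and Erbb2 without non-adipose replicate 3, Egfr alone without non-adipose replicate 1, and none in the other 3 fits, so that none kept both Hbegf and Tgfa. With array weights there were 3, with Nrg1 added. The 5 lower genes of the related lists became 10 with array weights and 2 to 9 with 1 array left out, and the 1 higher gene became 0 to 5. The 3 genes of the ERK-induced list became 7 with array weights, 6 with the replicate block and 1 to 7 with 1 array left out. Over all genes, 473 lower and 368 higher became 893 and 728 with array weights, 336 to 981 and 298 to 819 with 1 array left out, both highest without white adipose replicate 1. The replicate block, whose numbers are not stated to mark pairs, gave 577 lower and 504 higher genes and the same count of 2 members. With it the SE of Hbegf fell from 0.24 to 0.12 and that of Ereg from 0.20 to 0.095. The unadjusted p (limma) was then 0.0069 for Hbegf, 0.040 for Tgfa, 0.061 for Ereg and 0.066 for Nrg1, each with an adjusted p of 0.885. The causes were not tested. With 1 array left out, the ranges were -0.11 to 0.085 for Btc, -0.40 to 0.14 for Egfr, -0.068 to 0.31 for Egf, -0.16 to 0.0079 for Erbb4 and -0.041 to 0.064 for Nrg4. Groups of 3 arrays and the absence of detection calls limit what dim genes can show.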
